A study of Rattus rattus with 8 samples.

Results

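Mitosis, spindle and kinetochore genes encode the machinery that condenses chromosomes, attaches them to the spindle, pulls them apart and divides the cell. A list of 42 gene symbols was matched exactly to the symbols in the probe table of the array. It found 38 genes among the 16945 genes that the table names. Kif4a, Spc24, Ect2 and Anln carried no feature under these symbols and were not analysed here. Liver RNA came from 8 male rats of the strain given as WH, which the labels assign to the species Rattus rattus. The control group of 4 rats received diet with 0 ppm sodium phenobarbital (NaPB), a sedative drug whose action on hepatocytes runs through the nuclear receptor CAR. The other 4 rats received 2500 ppm NaPB in the diet, and all livers were taken after 7 days, with no other agent or allele named. Each rat was measured on 1 single-colour Agilent array, and the age of the rats is not given in the sources used here.

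Entry into mitosis is driven by the kinase Cdk1 bound to A-type and B-type cyclins. The kinetochore, a protein complex built on the centromere, then captures spindle microtubules. The spindle checkpoint delays the separation of chromosomes until all are attached, after which the ubiquitin ligase APC/C destroys securin and cyclin B. Hepatocytes of adult liver are largely at rest and can return to the cycle, and many are polyploid, since nuclear division is not always followed by cytokinesis. In rodents phenobarbital is known to enlarge the liver and to cause a wave of hepatocyte replication early in treatment.

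Every level below is a scaled intensity, meaning the brightness of a spot divided by the 75th percentile of the named features on the same array. Values under 0.03 were set to this floor, a choice made without a measure of noise, since none is in the data used, and a gene's level is the log2 average of its features. Levels of different genes cannot be compared, because each probe binds with its own strength. Between 31.8% and 34.5% of named features lay at the floor on an array. The hepatocyte markers, such as albumin (Alb), were above the floor on all arrays for 8 of 8 genes. In bulk liver RNA a change in the number of dividing cells and a change in RNA per cell cannot be told apart.

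Transcripts of the mitotic machinery were higher in the livers of NaPB rats. Of the 38 genes, 31 exceeded the floor in 3 or more rats of either diet and were tested, and 26 of these rose while none fell. Over all 10944 genes tested, 6.16% rose and 4.29% fell (limma, Benjamini-Hochberg adjusted p under 0.05, 4 rats per diet). The median log2 change of the 31 genes was 1.46, against 0.00148 over all genes tested. All 31 changes were positive, so that no gene was lower at an unadjusted p under 0.05 either. A fall could not be seen in 9 of the 31, whose 4 controls all lay at the floor. The diets did not overlap in 27 of the 31, with all NaPB rats above all controls, which was the case for 10.8% of all genes tested.

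The filter on low values shapes these counts, including those of positive changes and of separate diets. For 14 of the 31 genes fewer than 3 control arrays lay above the floor, so that they entered the test only through the NaPB rats and had to differ to be tested. Of these 14, 11 rose, and 19.5% of the 334 genes tested in this way rose. In 9 of the 14 all 4 controls were at the floor, so that the SD between controls was 0. The SE and adjusted p of these 9 thus do not reflect variation between control rats. In Kif11, Prc1, Spc25 and Ube2c some or most control readings were at the floor too, and the SD between controls was 0.012, 0.107, 0.088 and 0.053. Their SE reflects variation between control rats only in part. The other 17 of the 31 genes were measurable in control liver, and 15 of them rose, with a median log2 change of 1.04. Among the 10610 genes measurable in control liver to the same degree, 5.74% rose. Without control replicate 1 the share of all tested genes that rose was 3.84%, and without control replicate 2 it was 3.55%, with 24 of 31 mitotic genes higher in both cases.

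**Figure D1:**
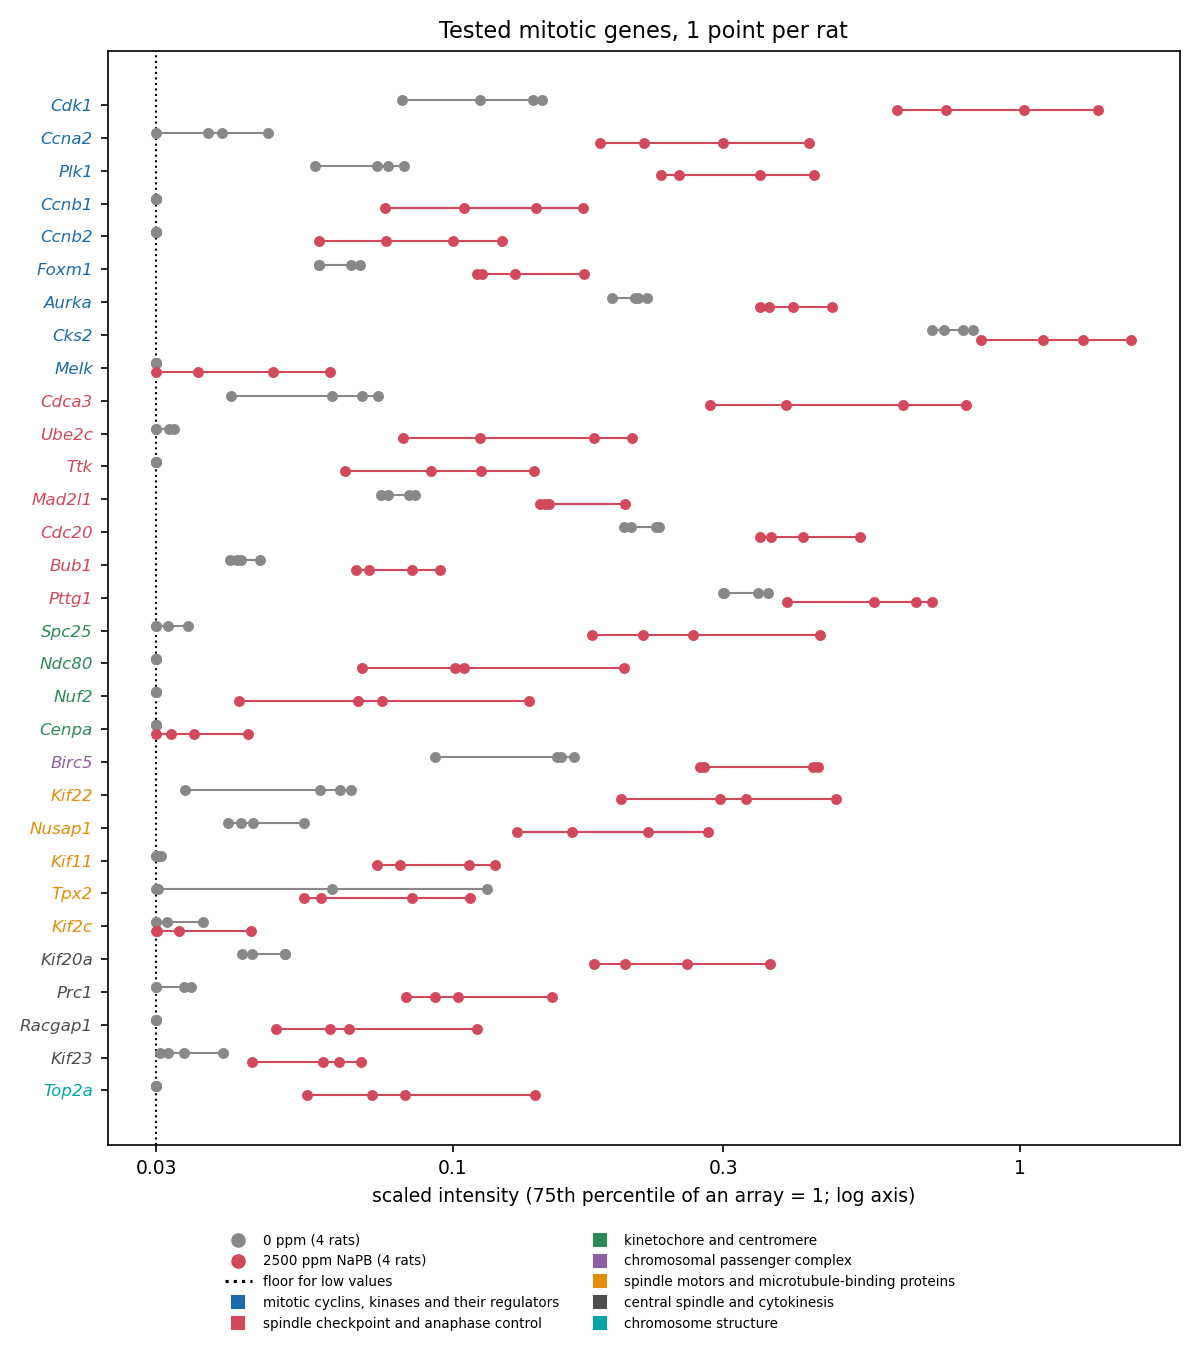
Scaled intensity of the 31 tested mitotic genes in each of the 8 rats on a log axis, with 0 ppm rats in grey, 2500 ppm NaPB rats in red, lines spanning each diet and gene names coloured by role. In 27 genes all 4 red points lie to the right of all grey points, and levels should be compared within a gene only.

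Among the mitotic cyclins, kinases and their regulators, 7 of 9 tested genes rose, against 6.16% of all genes tested. Of the 9, 3 entered the test only through the NaPB rats, a class in which 19.5% of all genes rose, and 2 of these 3 rose. Cdk1, the kinase that starts mitosis, had levels of 0.0813, 0.112, 0.144 and 0.138 in control rats 1 to 4 and of 0.74, 1.37, 1.02 and 0.607 in NaPB rats 1 to 4. The lowest NaPB rat was thus far above the highest control, and no feature value of Cdk1 lay at the floor. Its log2 change was 2.94 ± 0.27 (errors of log2 changes are SE throughout, n = 4 rats per diet), a 7.68-fold rise (adjusted p = 0.000519). Its 10 features agreed closely, with changes between 2.84 and 3.08. Cks2, a small subunit that binds Cdk1, stood at 0.793, 0.701, 0.827 and 0.735 in controls and at 1.1, 1.29, 1.57 and 0.853 with NaPB. The diets did not overlap, but the log2 change of 0.62 ± 0.17 missed the threshold (adjusted p = 0.052).

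The mitotic cyclins were at or near the floor in control liver. Ccnb1, the main partner of Cdk1 in mitosis, lay at the floor in all 4 controls and reached 0.105, 0.169, 0.14 and 0.076 in the NaPB rats, so that it was at least 3.91-fold higher (adjusted p = 0.00117). Ccnb2, the second B-type cyclin gene, was likewise at the floor in all controls and at least 2.86-fold higher. Ccna2, which acts in S phase and at the entry into mitosis, was at the floor in 3 of 12 control readings and rose by 2.81 ± 0.26 on the log2 scale (adjusted p = 0.000477). Each of these cyclins was well separated between the diets, while the size of its change was limited from below by the floor.

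Plk1, a kinase of centrosome maturation and mitotic exit, measured 0.0571, 0.0819, 0.0734 and 0.0769 in controls and 0.25, 0.434, 0.348 and 0.233 with NaPB, a log2 change of 2.09 ± 0.21. Aurka, the kinase of spindle poles, went from 0.191, 0.212, 0.21 and 0.22 to 0.348, 0.466, 0.399 and 0.361 (0.91 ± 0.10, adjusted p = 0.00133). Foxm1, the transcription factor that activates many genes of the G2 and M phases, went from 0.058, 0.058, 0.0685 and 0.0662 to 0.11, 0.17, 0.129 and 0.113. Its log2 change was 1.04 ± 0.14 (adjusted p = 0.00329), and no NaPB rat overlapped a control for Plk1, Aurka or Foxm1. Melk, a kinase abundant in dividing cells, was at the floor in all 4 controls and at 0.0607, 0.0482, 0.0355 and 0.03 with NaPB, and its change of 0.49 ± 0.20 missed the threshold (adjusted p = 0.153). Cdkn3, a phosphatase that acts on Cdk kinases, was not tested, since all 8 feature readings in controls and 5 of 8 in NaPB rats were at the floor.

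In the group that controls the spindle checkpoint and the onset of anaphase, all 7 tested genes of the list rose, against 6.16% of all genes tested. Of the 7, 2 entered the test only through the NaPB rats, a class in which 19.5% of all genes rose. Cdca3, which helps to trigger entry into mitosis, had levels of 0.0407, 0.0612, 0.0739 and 0.0692 in controls and of 0.387, 0.803, 0.623 and 0.285 in NaPB rats. No feature value of Cdca3 lay at the floor, and its rise was 8.11-fold (log2 3.02 ± 0.33, adjusted p = 0.00104). Ube2c, the ubiquitin-conjugating enzyme of the APC/C, rose by 2.13 ± 0.26, and 2 of its 4 control readings were at the floor. Ttk, the kinase that starts checkpoint signalling, was at the floor in all 4 controls and at least 3.27-fold higher (adjusted p = 0.00168).

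The remaining checkpoint genes changed by about 1 log2 unit or less. Mad2l1, which holds the APC/C inactive, was at 0.0768, 0.0747, 0.0838 and 0.0858 in controls and at 0.145, 0.201, 0.148 and 0.143 with NaPB (0.97 ± 0.12, adjusted p = 0.00202). Cdc20, the activator of the APC/C that Mad2l1 restrains, stood at 0.228, 0.2, 0.231 and 0.206 against 0.364, 0.522, 0.414 and 0.348 (0.91 ± 0.13, adjusted p = 0.0039). The groups were separate for both genes. Pttg1 encodes securin, which guards the cohesion of sister chromatids, and it measured 0.3, 0.36, 0.345 and 0.301 against 0.655, 0.699, 0.552 and 0.389. Its change of 0.78 ± 0.18 passed narrowly (adjusted p = 0.0267), and the call was lost without any 1 array other than NaPB replicate 4 (adjusted p up to 0.0691).

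Bub1, a checkpoint kinase of the kinetochore, read 0.0423, 0.0405, 0.0416 and 0.0458 in controls and 0.0712, 0.095, 0.0849 and 0.0675 with NaPB, a log2 change of 0.89 ± 0.12 (adjusted p = 0.00249). These levels combine unlike features: 2 of the 4 lay at the floor on all 8 arrays, and the other 2 changed by 1.77 and 1.80. With features at the floor left out, a setting added after the data were seen, Bub1 rose by 1.78. Bub1b, the checkpoint protein known as BubR1, was not tested, as 8 of 8 readings in controls and 5 of 8 in NaPB rats were at the floor. Before the floor was applied, 1 feature of Bub1b read 0.00326 to 0.00414 in controls and 0.0231 to 0.0622 with NaPB, so that the diets were separate below the floor. With a floor of 0.015 Bub1b rose by 1.09 (adjusted p = 0.0191), and 5.3% of the 12248 genes tested with this floor rose. All control readings of Bub1b lay under 0.015 too. It thus entered that test only through the NaPB rats, and its adjusted p does not reflect variation between control rats.

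At the kinetochore and centromere, 3 of 4 tested genes rose, and all 4 entered the test only through the NaPB rats, a class in which 19.5% of all genes rose. Spc25 and Ndc80 belong to the NDC80 complex, which binds microtubule ends, together with Nuf2. Spc25 stood at 0.03, 0.0341, 0.03 and 0.0314 in controls and at 0.217, 0.445, 0.265 and 0.176 with NaPB, a log2 change of 3.05 ± 0.25 (adjusted p = 0.000287). Since 5 of its 8 control readings were at the floor, this value depends on the floor, and it was 1.37 with a floor of 0.1 and 3.29 with a floor of 0.015. Ndc80 and Nuf2 were at the floor in all 4 controls and were at least 3.67-fold and at least 2.45-fold higher (adjusted p = 0.00407 and 0.0282). The call of Nuf2 was lost without any 1 array other than NaPB replicates 2 and 4 (adjusted p up to 0.0709).

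The 3 listed centromere proteins were barely detected. Cenpa, the histone variant that marks the centromere, lay at the floor in all controls and at 0.0319, 0.0435, 0.0349 and 0.03 with NaPB, a change of 0.21 ± 0.11 that missed the threshold (adjusted p = 0.273). Cenpf, a large protein of the outer kinetochore, was at the floor in all 16 feature readings of controls and in 14 of 16 of NaPB rats. Cenpe, a kinetochore motor, was at the floor on all 8 arrays. A difference in Cenpf and Cenpe was not detectable at this signal.

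The chromosomal passenger complex corrects faulty attachments and directs cytokinesis, and of its 3 listed genes Birc5 gave enough signal for a test. Birc5 encodes survivin and measured 0.0931, 0.155, 0.164 and 0.153 in controls and 0.277, 0.432, 0.441 and 0.273 with NaPB. It rose 2.52-fold (log2 1.33 ± 0.23, adjusted p = 0.00938), with no feature value at the floor. Aurkb, the kinase of the complex, and Cdca8, which encodes borealin, were not tested, since 8 and 7 of their 8 control readings and 5 of 8 NaPB readings for each were at the floor. Incenp, the scaffold of the complex, stands in the wider list of mitosis genes and rose by 1.37 ± 0.20 (adjusted p = 0.00383), a gene named here after its values were seen. With the highest and the lowest NaPB rat for most of these genes both left out, replicates 2 and 4, Birc5 was at 1.34 and just missed the threshold (adjusted p = 0.051).

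Among spindle motors and microtubule-binding proteins, 3 of 5 tested genes rose, against 6.16% of all genes tested. Of the 5, 2 entered the test only through the NaPB rats, a class in which 19.5% of all genes rose, and 1 of these 2 rose. Kif22, a motor that pushes chromosome arms toward the spindle equator, read 0.0337, 0.0631, 0.0582 and 0.0662 in controls and 0.295, 0.473, 0.329 and 0.198 with NaPB, a 5.77-fold rise (log2 2.53 ± 0.29). Nusap1, which bundles spindle microtubules around chromosomes, read 0.0424, 0.0547, 0.0444 and 0.0401 against 0.162, 0.281, 0.221 and 0.13 (2.08 ± 0.23, adjusted p = 0.00108). All NaPB rats lay above all controls for both. Kif11, the motor that separates the spindle poles, rose by 1.63 ± 0.15, with 36 of 40 readings at the floor in controls and none in NaPB rats. Its change depended on the floor, at 1.97 with a floor of 0.015 and at 0.10, with no call, with a floor of 0.1.

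The other members of this group gave no call. Tpx2, which activates Aurka on the spindle, rested on a single feature with scattered controls, at 0.0302, 0.03, 0.115 and 0.0613 against 0.0846, 0.107, 0.0546 and 0.0586. Its interval ran from -0.44 to 1.53 on the log2 scale (95%), and leaving out 1 array moved the change between 0.30 and 0.95. Kif2c, which depolymerizes microtubules at centromeres, was at 0.0362, 0.03, 0.0314 and 0.03 in controls and at 0.0301, 0.044, 0.0329 and 0.03 with NaPB. The groups overlapped, the interval ran from -0.22 to 0.39, and 37 of 44 control readings lay at the floor. The sign of Kif2c turned to -0.14 with its brightest feature. Hmmr, which binds spindle microtubules and hyaluronan, was at the floor on all 8 arrays and was not tested.

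All 4 tested genes that the list holds for the central spindle and cytokinesis rose, against 6.16% of all genes tested. Of the 4, 2 entered the test only through the NaPB rats, a class in which 19.5% of all genes rose. Kif20a, a motor of the central spindle, had levels of 0.0425, 0.0443, 0.0506 and 0.0507 in controls and of 0.201, 0.362, 0.259 and 0.177 with NaPB, a 5.13-fold rise with no feature value at the floor (log2 2.36 ± 0.20, adjusted p = 0.000407). Prc1, which cross-links the microtubules of the central spindle, rose by 1.70 ± 0.17, and 43 of its 48 control readings were at the floor. With a floor of 0.1 the change of Prc1 was 0.34 and lost its call. Racgap1 and Kif23 together form centralspindlin, the complex that positions the cleavage furrow. Racgap1 was at the floor in all 4 controls and at least 2.27-fold higher (adjusted p = 0.0114). Kif23 stood at 0.0305, 0.0314, 0.0336 and 0.0393 against 0.059, 0.0689, 0.0631 and 0.0442, the smallest change of this group (0.79 ± 0.15, adjusted p = 0.0122). Its highest control lay just under its lowest NaPB rat.

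Top2a, the topoisomerase that untangles sister chromatids, was at the floor in all 4 controls and at 0.0719, 0.14, 0.0824 and 0.0554 with NaPB, 2.74-fold higher (adjusted p = 0.00737). Since 3 of its 12 NaPB readings were also at the floor, this is not a strict lower bound. Of its 3 features, 1 stayed near the floor and changed by 0.02 on the log2 scale, whereas the others changed by 2.14 and 2.21. The feature near the floor is assigned to another transcript record than the others. The changes of Prc1 were uneven too, with 12 features that changed by 0.06 to 2.24, and 11 features of Foxm1 spanned 0.06 to 1.39. The features of Ccna2 (2.74 to 2.91), Spc25 (3.03 and 3.06) and Cdc20 (0.91 and 0.92) lay close together.

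Single spots also set some gene levels. A feature of Nusap1 read 0.398 in control rat 2, while its readings in the other controls were 0.0377, 0.0466 and 0.0369. With this brightest feature alone the change of Nusap1 was 1.47 and no longer passed (adjusted p = 0.247). Before the floor was applied, the brightest feature of Prc1 read 0.0226 and 0.0231 in control rats 1 and 2 but 0.109 and 0.113 in control rats 3 and 4. With it alone the change of Prc1 was 1.25 and missed the threshold (adjusted p = 0.159).

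**Figure D2:**
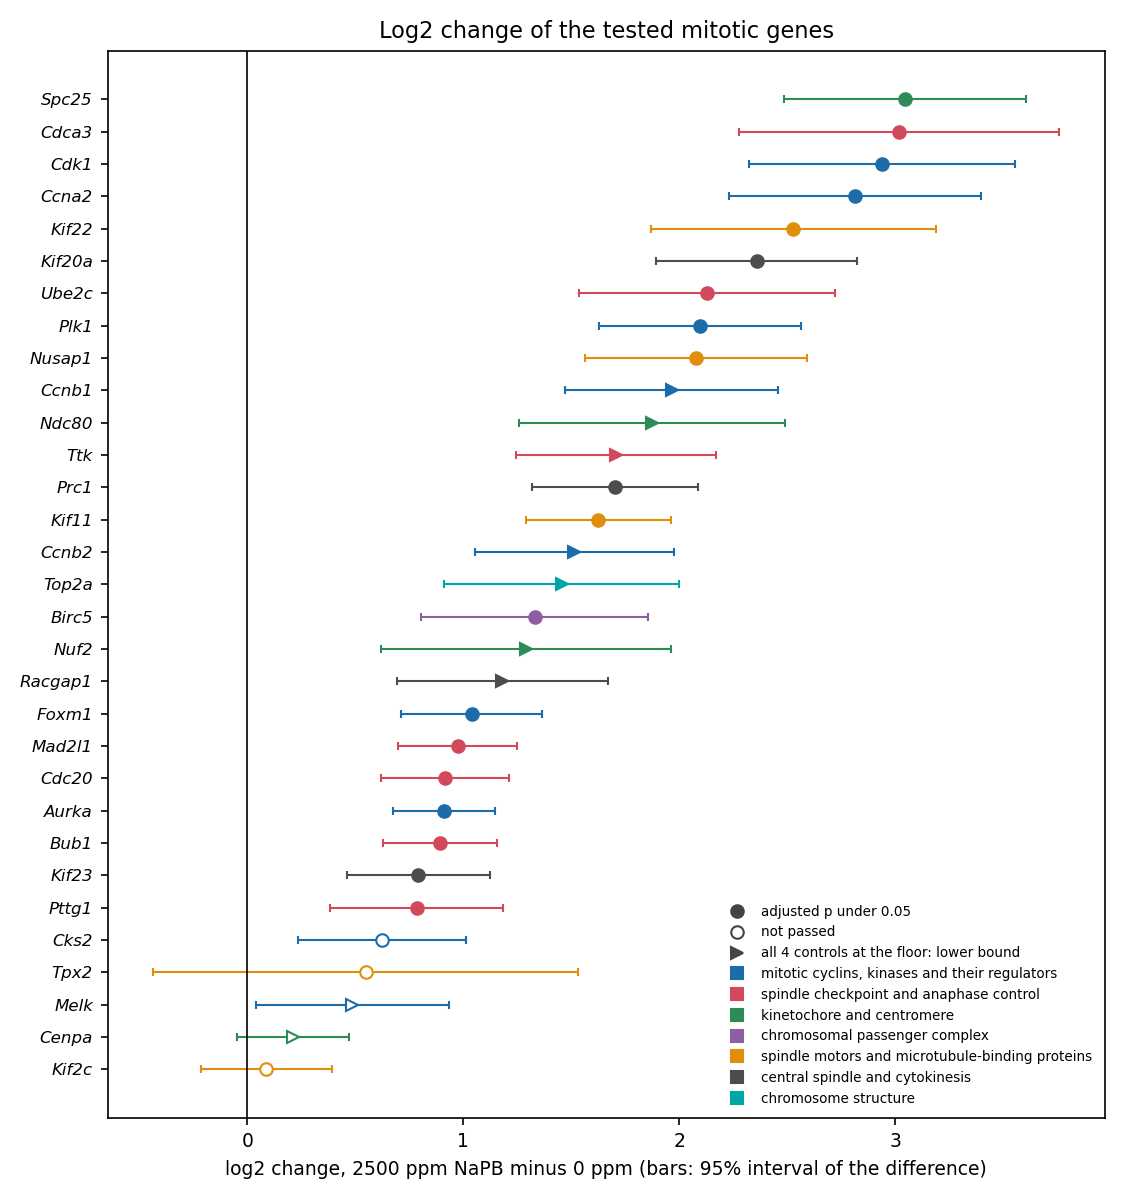
Log2 change of each of the 31 tested genes, 2500 ppm NaPB minus 0 ppm, with 95% intervals of the difference, colours by role, filled symbols for an adjusted p under 0.05 and triangles where all 4 controls lay at the floor. A triangle is a lower bound, but not strictly so for Melk, Cenpa and Top2a, where some NaPB readings were at the floor too. The 26 filled symbols run from 0.78 (Pttg1) to 3.05 (Spc25), and the 5 open symbols from 0.09 (Kif2c) to 0.62 (Cks2).

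The NaPB rats differed from each other in a common order. Of the 26 genes that rose, NaPB rat 2 was the highest of its group in 25 and NaPB rat 4 the lowest in 24. The full order of rats 2, 3, 1 and 4 was seen in 22 of these 26 genes. In the 603 genes that rose and belong to no mitosis or replication list, rat 2 was the highest in 27.4%, rat 4 the lowest in 25% and this order was present in 27 genes. The order was read from the same values and was not tested.

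Relative to the mean of the 4 NaPB rats, rat 2 had a median deviation of 0.53 on the log2 scale over the 26 genes, rat 3 of 0.11, rat 1 of -0.17 and rat 4 of -0.54. Rat 2 lay above the mean in 26 of 26 genes and rat 4 in 0 of 26. The highest NaPB rat exceeded the lowest by a median of 2.13-fold, from 1.34-fold for Aurka to 3.26-fold for Nuf2. In the 14 genes that rose and lay above the floor in all 4 controls, the median SD between rats was 0.38 with NaPB and 0.15 in controls. Control rat 1 lay above the control mean in 1 of these 14 genes, and rats 3 and 4 in 12 and 11. Of the 7 genes that were not tested, 5 had a value above the floor, and NaPB rat 2 was the highest of the NaPB rats in each of these 5. For Cdca8, control rat 3 at 0.0325 lay above it at 0.0322.

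**Figure D3:**
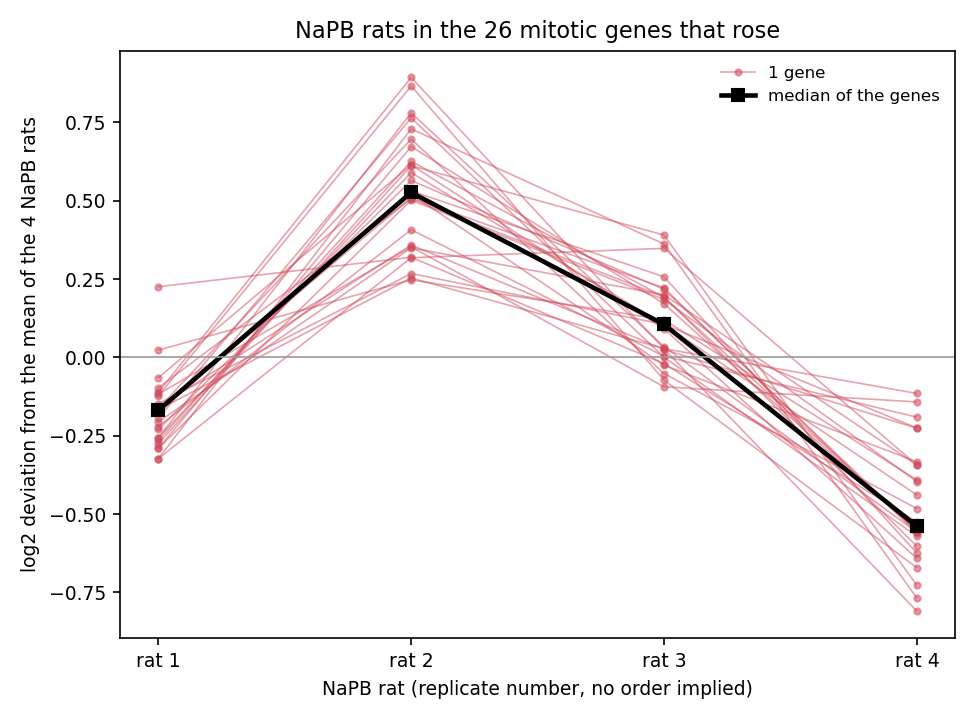
Deviation of each NaPB rat from the mean of the 4 NaPB rats on the log2 scale, with 1 thin line per gene for the 26 mitotic genes that rose and their median in black. Rat 2 is above 0 in all 26 genes and rat 4 in none, with medians of 0.53 and -0.54.

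Array-wide measures also differed between the NaPB rats. The share of named features at the floor was 31.8% for NaPB rat 2 and 34.3% for NaPB rat 4, against 32.6% and 33.5% for rats 1 and 3. The summed level of the hepatocyte markers was 1071, 955, 1042 and 998 in NaPB rats 1 to 4 and 1114 to 1199 in controls. After quantile normalization, which gives each array the same distribution, rat 2 was the highest in 24 and rat 4 the lowest in 22 of the 26 genes. The part of these measures in the order of the rats was not tested. Drug-response genes, chosen after their values were seen, had other orders, and a link to the order in the mitotic genes was not tested. Cyp2b2, the P450 used as a marker of phenobarbital, stood at 137, 129, 111 and 138 in NaPB rats 1 to 4. Gadd45b, a growth arrest and stress gene, stood at 1.94, 2.09, 2.68 and 2.46.

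Other genes of mitosis were taken from a list of 105 symbols that holds none of the 42 symbols of the first list. Of 63 tested, 22 rose and none fell. Their median log2 change was 0.41, and 55 of the 63 changes were positive. Among the 45 measurable in control liver, 15 rose (33.3%, against 5.74% of all such genes) and the median was 0.26. Ckap2, a microtubule-binding protein of the spindle, rose by 2.61 ± 0.36. Ncaph, a subunit of condensin, rose by 2.28 ± 0.25, and Cenpw, a centromere protein at the floor in all 4 controls, was at least 4.37-fold higher (adjusted p = 0.00343). With a floor of 0.1 Ncaph (0.67) and Cenpw (0.50) lost their calls. The difference between this list and the 31 genes was not tested.

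Complexes and genes within this list were picked out after their values were seen, and their counts stand beside the 6.16% of all tested genes that rose. Of the core subunits of the APC/C and its activator Fzr1, 1 of 10 tested genes rose, Anapc10 at 0.49 ± 0.12, and the other 9 lay between -0.19 and 0.26. Of 4 tested condensin subunits 3 rose, namely Ncaph, Smc4 and Ncapd2. Of 17 further centromere and kinetochore genes 7 rose, among them Zwint, a partner of the outer kinetochore, from 2.03 to 3.71 (log2 0.87 ± 0.11, adjusted p = 0.0019). Cenpb and Cenpl, centromere proteins above the floor on all arrays, did not pass at -0.18 and 0.18. Of further checkpoint genes Bub3, Mad1l1, Zw10 and Mad2l1bp did not pass either, at 0.07, 0.04, 0.04 and 0.24. Cit, a kinase of cytokinesis, was lower in all NaPB rats than in all controls and missed the threshold (-0.43 ± 0.12, adjusted p = 0.0547), and the motor Kif20b did not pass at 0.29.

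DNA replication genes act in the S phase that precedes mitosis. Of 38 tested, 23 rose and 1 fell, against 6.16% and 4.29% of all genes tested. The median log2 change of the 38 was 0.70, and 36 of them were measurable in control liver. Of these 36, 21 rose (58.3%, against 5.74% of all such genes). Rrm2, the ribonucleotide reductase subunit made in S phase, rose by 2.42 ± 0.29. Chaf1b, which loads histones onto new DNA, rose by 2.01 ± 0.26, and Mcm3, part of the replicative helicase, by 1.75 ± 0.20. Ung, a uracil glycosylase of DNA repair, fell by 0.45 ± 0.11 (adjusted p = 0.0415). This call was lost in 11 of 21 other settings (adjusted p up to 0.112), among them leaving out any 1 array except control replicate 1. Among the replication genes that rose, NaPB rat 2 was the highest in 20 of 23 and rat 4 the lowest in 11.

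**Figure D4:**
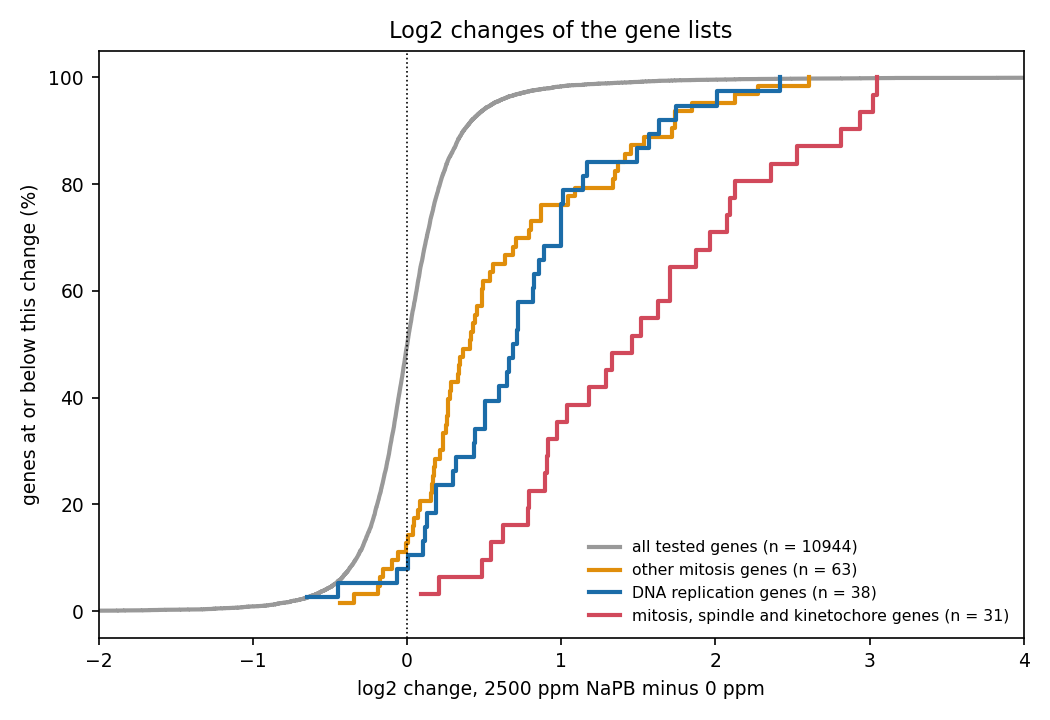
Cumulative share of genes at or below each log2 change, 2500 ppm NaPB minus 0 ppm, for all 10944 tested genes, 63 other mitosis genes, 38 DNA replication genes and the 31 tested mitosis, spindle and kinetochore genes. The medians are 0.00148, 0.41, 0.70 and 1.46, or -0.0072, 0.26, 0.67 and 1.04 over the genes measurable in control liver, and the axis is limited to changes from -2 to 4.

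Markers of other liver cells were examined beside the mitotic genes. Of 11 lymphocyte markers on the array, 4 (Cd3e, Cd2, Cd79a and Ms4a1) were at the floor on all 8 arrays, none rose and 1 fell. Their summed level ranged from 0.804 to 0.834 in controls and from 0.775 to 0.898 with NaPB. Of 6 markers of Kupffer cells and macrophages 1 fell, of 5 of sinusoidal endothelium 1 fell and of 7 of stellate cells 3 fell. None of these rose. Of 8 hepatocyte markers 2 likewise fell and none rose, and over all genes tested 4.29% fell. The Kupffer cell sum was 26.1 to 30.7 in controls against 23 to 29.3 with NaPB. The endothelial sum was 14.7 to 16.3 against 11 to 13.1, and the stellate cell sum 6.6 to 9.63 against 5.25 to 6.05. In NaPB rats 1 to 4 the endothelial sum was 12.4, 13.1, 12.7 and 11, the common order of the rats in the mitotic genes. The Kupffer cell sum was 29.3, 23.8, 23.3 and 23 and the stellate cell sum 5.4, 5.5, 6.05 and 5.25, in other orders. A link to the order in the mitotic genes was not tested. Such sums weight genes by the brightness of their probes. In controls Clec4f made up 77.4% of the Kupffer cell sum, Kdr 82.6% of the endothelial and Col3a1 72.7% of the stellate cell sum. Kdr and Col3a1 were among the genes that fell, while Pecam1 (-0.02) and Cdh5 (0.06), also of endothelium, did not pass.

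Bile duct markers were higher, with a summed level of 0.365 to 0.451 in controls and 0.855 to 1.03 with NaPB. This sum was carried by Epcam, an adhesion protein of bile duct and progenitor cells, which rose by 1.60, while Sox9 was at the floor on all 8 arrays and Krt7, Krt19 and Spp1 did not pass. Epcam, measured by 1 feature, stood at 0.803, 0.619, 0.78 and 0.848 in NaPB rats 1 to 4, lowest in rat 2. Krt7 stood at 0.0845, 0.107, 0.0451 and 0.03 in these rats, highest in rat 2 and lowest in rat 4. Krt19 and Spp1 were highest in rat 3 and lowest in rat 4. Erythroid markers were lower in sum with NaPB, at 28.4 to 49.7 against 53.2 to 58, though none of 3 tested passed, and the sum was 33.6 in NaPB rat 2 and 28.4 in rat 4. The part of these cells in the mitotic gene levels was not tested.

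The floor decides the size of many of these changes and some of the calls. With a floor of 0.1, 22 of the 31 genes could be tested and 16 rose, 15 of them among the 26, while 7.03% of 8703 genes rose. Of these 22, 16 entered only through the NaPB rats, where they are high, and 10 of them rose. The other 6 (Cdk1, Aurka, Cks2, Cdc20, Pttg1 and Birc5) were measurable in control liver above this floor and all 6 rose, against 6.64% of 8484 such genes. Ccnb1, Kif11, Ndc80, Prc1, Top2a and Ube2c lost their call, with log2 changes of 0.10 to 0.51, and Ccnb2, Kif23, Nuf2, Racgap1 and Ttk were no longer tested. The log2 change was then 1.37 for Spc25, 1.41 for Ccna2, 1.27 for Kif20a, 1.63 for Kif22, 0.88 for Nusap1, 0.50 for Foxm1 and 0.53 for Bub1, all still past the threshold. For Cdk1, Birc5, Cdc20, Aurka, Pttg1 and Cks2 the change moved by less than 0.1 between floors of 0.015 and 0.1. Among genes whose mean over all arrays lay above that of the median gene, 15 of these genes were tested and all 15 rose, Cks2 included, against 7.07% of 8472 genes. This mean includes the NaPB rats, so that a rise helps a gene to pass the filter, and 14 of the 15 were measurable in control liver, Spc25 being the exception.

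**Figure D5:**
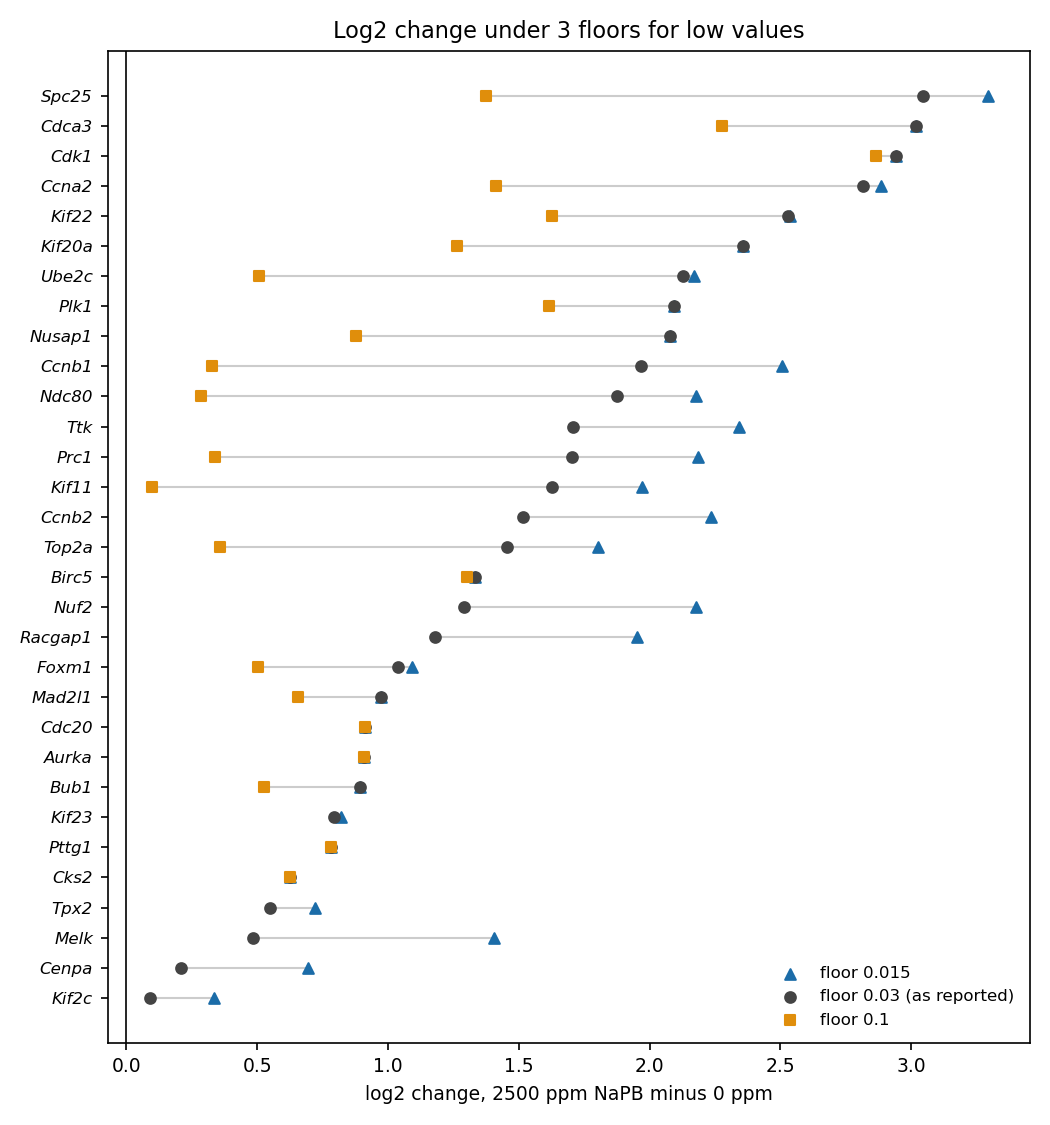
Log2 change of the 31 genes, 2500 ppm NaPB minus 0 ppm, with low values set to a floor of 0.015 (blue triangles), 0.03 (dark circles) or 0.1 (orange squares), and no square where a gene was not tested with the highest floor. The symbols of Cdk1, Cdc20, Aurka, Birc5, Pttg1 and Cks2 nearly coincide, whereas those of Kif11 spread from 0.10 to 1.97.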

How the data were processed

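The submitters' processing notes name Agilent Feature Extraction 10.7 as the image software. The deposited values are spot intensity on a linear scale, already scaled per array to a common level. How background and spot flags were handled is not given in the sources used here. Slides and batches are not named either, and no batch could be examined. Of 62976 features, 45904 carried 1 gene symbol, 0 several and 17072 none. Intensities were rescaled by the array's 75th percentile over named features, raised to 0.03 where lower, log2-transformed and averaged per gene. Genes that exceeded the floor in 3 or more rats of either diet were tested with limma 3.58.1 in R 4.3.3. The fit used lmFit and eBayes with a two-sided moderated test, Benjamini-Hochberg adjustment over 10944 genes and a threshold of 0.05. The procedure was also run on simulated data, with changes planted only in genes well above the floor in controls. That run did not cover changes in genes at or near the floor, where many calls here lie. Figures were drawn with matplotlib 3.10.9. The number of arrays limits the precision.

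Replicate numbers belong to different animals, and deviations of same-numbered rats from their diet means correlated at -0.13 to 0.08, so that they were not used as pairs. The members and lists were chosen with earlier results of these data known. Every member was named. Levels in all 8 rats were printed for members above the floor on all arrays, for the largest and smallest change of each role, and for Ccnb1, Cdk1 and Top2a. From other lists came the 3 largest rises and falls past the threshold. Alternatives were other scalings, floors and filters, the brightest feature per gene, the replicate block, array weights, a trended prior and leaving out arrays. Sequences were not used here.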

Additional observations from a re-analysis of the deposited data

Results flagged for a closer look

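In 3 of 66 groups of 4 rats, over the tested mitotic genes and the genes named from the other lists, 1 rat lay far from the other 3 by Dixon's criterion, and chance gives about 1 in 20. Birc5 was low in control rat 1, at 0.0931, against 0.153 to 0.164 in the other controls. Mad2l1 was high in NaPB rat 2, at 0.201, against 0.143 to 0.148 in the other NaPB rats. Mcm3, a replication gene, was also high in NaPB rat 2, at 0.406, against 0.233 to 0.254.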

How the results depend on the processing

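The number of mitotic genes that rose was 26 and stayed between 23 and 28 in all settings except a floor of 0.1 (16) and genes above the median gene only (15), where fewer were tested. Other mitosis genes went from 22 to 9 and 7 in these settings, to 17 with no filter and to 30 with a floor of 0.015, and replication genes stayed between 18 and 25 in all settings. Over all genes, 1144 changed, against 739 with no filter on low values and 583 with the replicate block, under which 24 mitotic genes rose and Kif23 (adjusted p = 0.0588) and Nuf2 (0.0503) lost their call. Leaving out 1 array gave 625 to 980 changed genes, 24 to 27 mitotic, 19 to 22 other mitosis and 21 to 23 replication genes that rose. Without NaPB replicates 2 and 4, added after the data were seen, 532 genes changed and 26 mitotic genes rose. The sign of Kif2c turned to -0.141 with its brightest feature and with features at the floor left out, and to -0.015 without NaPB replicates 2 and 4. Cks2 passed with array weights (adjusted p = 0.0362), a trended prior (0.0411), a floor of 0.1 (0.0413), genes above the median gene only (0.0409), without NaPB replicate 4 (0.0144) and without NaPB replicates 2 and 4 (0.0444). With no filter Nuf2, Pttg1 and Racgap1 did not pass, and with a floor of 0.015 Melk and Bub1b did. All control readings of Melk and Bub1b lay under 0.015, so that they entered that test only through the NaPB rats. Other causes were not tested. Signal near background limits the size of changes in genes at the floor.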
